A study of Rattus norvegicus with 6 samples.

Results

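Genes of prostaglandin synthesis, breakdown and reception were followed in 6 kidney samples of rats aged 21 weeks, 3 labelled diabetic and 3 labelled as treated with Bailing Capsule, a preparation of fermented Cordyceps. The 10 genes were chosen by name: the cyclooxygenases Ptgs1 and Ptgs2, the terminal synthases Ptges, Ptgds and Ptgis, the inactivating dehydrogenase Hpgd and the prostaglandin E2 receptors Ptger1, Ptger2, Ptger3 and Ptger4. They were read from all probes of the array whose RefSeq accession belongs to one of these genes, which gave 11 of 30367 probes for 9 of the genes. No probe was matched to Ptger1, which was not analysed here. The labels give neither strain, sex nor dose, do not say how diabetes arose or whether the treated rats were diabetic, and no untreated non-diabetic group is among the samples analysed here. Nothing in the labels says how the samples were collected beyond calling them replicates, so the p-values reflect the spread among these 6 samples, which may be technical in part.

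Prostaglandins are short-lived lipid signals made from arachidonic acid, which phospholipases free from membranes. A cyclooxygenase turns it into prostaglandin H2, and a terminal synthase then makes prostaglandin E2, D2 or I2, which act on G protein-coupled receptors of the same or nearby cells until a dehydrogenase inactivates them. In the kidney they are known for widening the glomerular vessels and for stimulating renin release next to the macula densa. They are also known for opposing vasopressin and promoting salt and water excretion in the medulla and collecting duct.

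None of the 6 prostaglandin genes that could be tested passed the test between Bailing Capsule and diabetic kidneys. Both cyclooxygenase genes, the prostaglandin E synthase gene Ptges, Hpgd and Ptger3 had differences of at most 0.13 in size on the log2 scale, with groups that overlapped. Ptgds, the lipocalin-type prostaglandin D synthase gene, had the largest difference of the 6: its level was 2.51-fold higher in Bailing Capsule kidneys and all 3 of them lay above all 3 diabetic kidneys, but by a margin of 0.036 log2 units, and it did not pass (limma, adjusted p = 0.351). Ptgis, Ptger2 and Ptger4 were too dim to be tested.

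The upstream sequences of 3 of the genes are shown here, the cyclooxygenase pair that starts the pathway and Ptgds, the gene whose groups did not overlap. Each run is the 250 bases before the start of the gene in RefSeq, assembly GRCr8, read 5′ to 3′ on the gene's strand. Capitals mark 4 short motifs searched on both strands: the TATA box TATAAA, the E-box CACGTG, the GC box GGGCGG and the CCAAT box CCAAT. Ptgs1 lies at chr3:39981169-39981418 on the plus strand, Ptgs2 at chr13:64713813-64714062 on the plus strand and Ptgds at chr3:28682979-28683228 on the minus strand.
Ptgs1: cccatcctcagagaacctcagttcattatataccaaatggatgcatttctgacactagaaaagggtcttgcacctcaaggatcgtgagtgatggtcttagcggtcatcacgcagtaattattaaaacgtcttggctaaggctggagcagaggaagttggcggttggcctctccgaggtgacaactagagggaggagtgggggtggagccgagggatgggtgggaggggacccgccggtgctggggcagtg
Ptgs2: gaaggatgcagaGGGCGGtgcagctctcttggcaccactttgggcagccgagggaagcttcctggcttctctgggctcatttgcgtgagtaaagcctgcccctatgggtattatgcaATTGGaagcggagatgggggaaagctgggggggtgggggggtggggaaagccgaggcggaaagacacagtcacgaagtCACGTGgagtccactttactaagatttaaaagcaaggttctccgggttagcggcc
Ptgds: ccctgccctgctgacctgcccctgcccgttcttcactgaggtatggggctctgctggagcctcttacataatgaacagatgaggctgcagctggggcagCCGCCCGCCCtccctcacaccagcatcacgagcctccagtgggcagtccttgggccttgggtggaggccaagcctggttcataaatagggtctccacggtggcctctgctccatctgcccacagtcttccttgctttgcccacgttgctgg
The Ptgs2 window held an E-box that begins 55 bases upstream of the start, a CCAAT box on the opposite strand that begins at 133 and a GC box that begins at 238. The Ptgds window held 2 overlapping GC boxes on the opposite strand, and the Ptgs1 window none of the 4 motifs. The E-box was in 5.59% of the 33469 windows of this kind in the RefSeq table and in 1 of the 9 prostaglandin genes listed there, and TATAAA was in 12.9% and in none of the 9. The GC box was in 30.5% of all windows and in 6 of the 9, and CCAAT in 34.0% and in 2 of the 9. These matches describe the letters of the windows. RNA levels from an array do not show which of them are in use.

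RNA was labelled with a single dye and hybridized to Agilent rat arrays. All levels below are log2 signals minus the 75th percentile of the same array, so a negative level is dimmer than that percentile, and all differences are Bailing Capsule minus diabetic. Signals of different probes do not show which gene has more RNA, so the genes are not ranked by level. limma was fitted to 17892 features that stood well above background throughout at least 1 group of 3 arrays, and 57 of them, or 0.319%, were called at an adjusted p under 0.05. The groups did not overlap for 11.6% of the features, and 7.55% had an unadjusted p under 0.05. The median difference over all features was -0.090. Of 12 proximal tubule markers all 12 were well above background in at least 1 group, as were 4 of the 5 thick limb markers with a probe (Nos1 was not). The file headers give 1 scan time to all Bailing Capsule arrays and to diabetic replicate 1, here called slide 1, and another to the remaining diabetic arrays, slide 2. The word slide stands here for a shared scan time only. A value with slide as a block therefore rests on 1 diabetic array. In whole tissue, fewer cells of a type and less RNA per cell cannot be told apart.

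**Figure D1:**
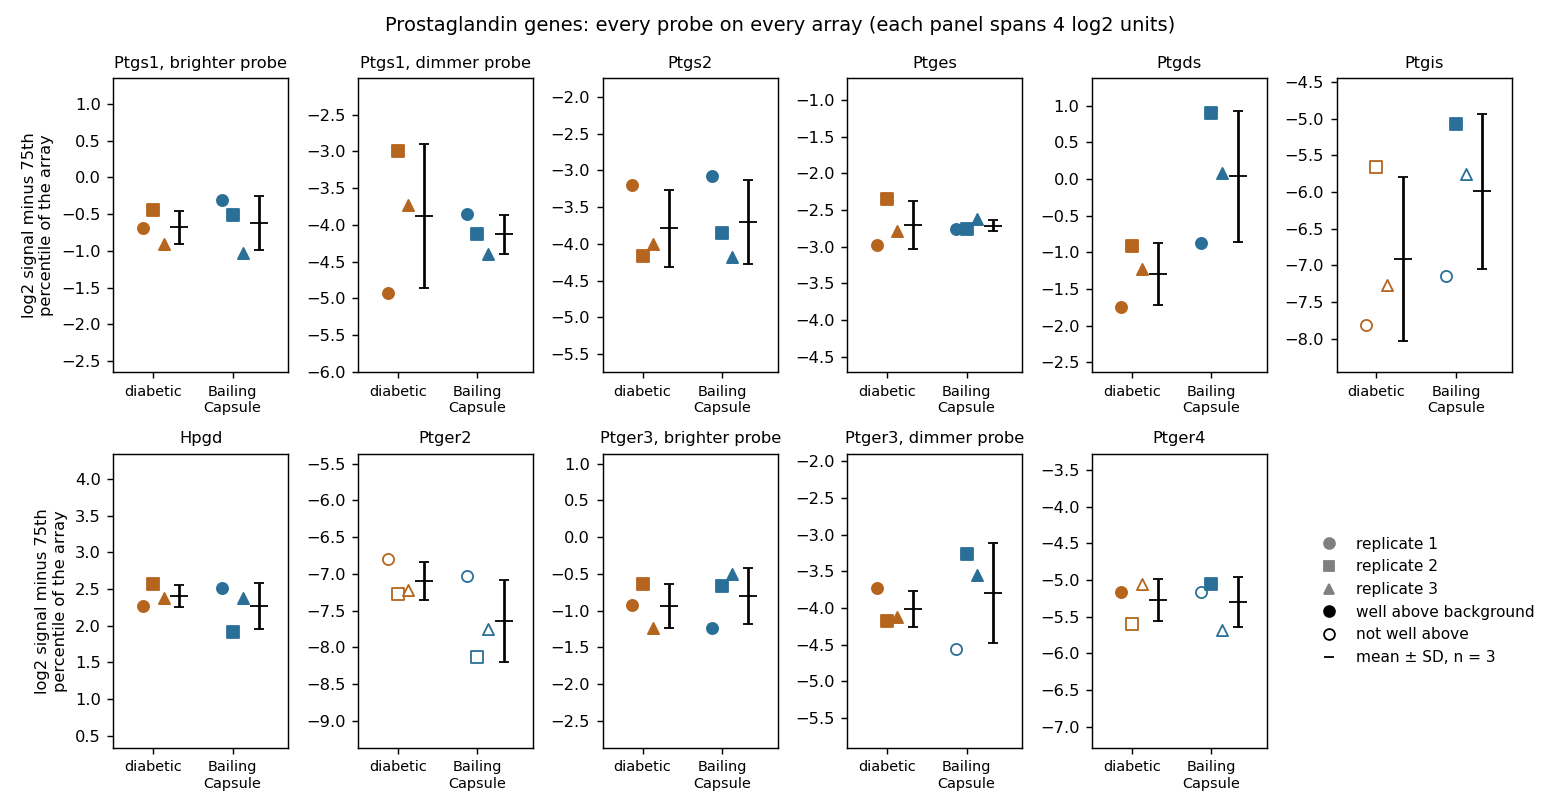
Level of each of the 11 probes on each of the 6 arrays, as log2 signal minus the array's 75th percentile; each panel spans 4 log2 units around its own mean, open symbols mark arrays where the probe was not well above background, and bars show mean ± SD of 3 arrays. The groups are apart only for Ptgds, where the lowest Bailing Capsule kidney (-0.88) lies just above the highest diabetic one (-0.91).

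Ptgs1 encodes cyclooxygenase 1, the form made constantly in most tissues. Its brighter probe had levels of -0.69, -0.45 and -0.91 in diabetic kidneys and of -0.31, -0.52 and -1.04 in Bailing Capsule kidneys. The highest and the lowest of the 6 levels were both in Bailing Capsule kidneys, and the groups overlapped throughout. The difference was 0.060 (SE 0.28), with a 95% interval from -0.56 to 0.68, and limma gave an adjusted p of 0.991. That interval still holds a rise of up to 1.60-fold and a fall of up to 1.47-fold.

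This probe was printed 10 times on each array, which gives the error among spots within an array. The SD among its spots on one array was 0.069 to 0.12 log2 units, while the SD between the arrays of a group was 0.23 in the diabetic and 0.37 in the Bailing Capsule group. The spread of Ptgs1 between arrays of a group was therefore larger than the spread among its spots, and it holds whatever differs between samples and between arrays as a whole. A dimmer probe of Ptgs1 with 1 spot had levels of -4.93, -2.99 and -3.73 in diabetic and of -3.86, -4.13 and -4.40 in Bailing Capsule kidneys. It was well above background on all 6 arrays and gave a difference of -0.25, opposite in sign to the brighter probe and also far from passing (limma on single probes, adjusted p = 0.974). Its SD in the diabetic group was 0.98, and these probes do not settle a direction for Ptgs1.

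**Figure D2:**
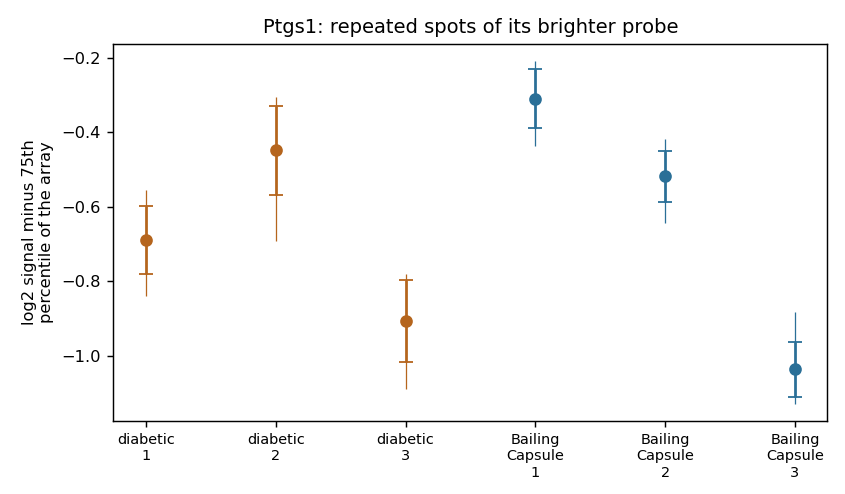
Log2 signal of the repeated spots of the brighter Ptgs1 probe on each array (points, mean of 9 or 10 spots; capped bars, SD among spots; thin lines, lowest to highest spot). The means run from -0.31 to -1.04 within the Bailing Capsule group alone, a wider span than the spots of any single array.

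Ptgs2 encodes cyclooxygenase 2, the inducible form, which in the kidney is known from the macula densa and from interstitial cells of the medulla. Its levels were -3.20, -4.17 and -4.00 in diabetic kidneys and -3.07, -3.86 and -4.18 in Bailing Capsule kidneys. The probe has 1 spot, which was well above background on all 6 arrays but dim, with unscaled signals of 12.4 to 29.9. Ptger4, at 11.6 on diabetic replicate 3, was not well above background. In each group 1 kidney, replicate 1, was higher than the other 2, and the ranges of the groups nearly coincided. The difference was 0.084 (SE 0.36, 95% interval -0.72 to 0.89; limma, adjusted p = 0.988), which leaves room for a rise of up to 1.85-fold or a fall of up to 1.65-fold. With slide as a block the value turned to -0.51 (adjusted p = 0.9997), which sets the Bailing Capsule arrays against the single, high diabetic array of slide 1. With a different background correction and quantile normalization the Ptgs2 difference was -0.0059. Over 18 alternatives it ran from -0.51 to 0.38 and was called in none. A list of 18 genes that are known to induce Ptgs2 or to rise with it in inflammation had 14 tested members, 6 with positive and 8 with negative differences, a median of -0.084 and none called (limma, 2 at an unadjusted p under 0.05). That median was 0.19 with slide as a block.

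By a rule set on likeness alone, the named genes whose profile over the 6 arrays lay nearest to Ptgs1 were Trim69, Wee1 and Ghrh. Their root mean square distances, after each gene was centred, were 0.083, 0.087 and 0.089 log2 units, against a spread of 0.26 in the profile of Ptgs1 itself. Nearest to Ptgs2 were Cimap1c, Or12j3 and Olfml2a, at 0.064, 0.071 and 0.079 against 0.45. They were the nearest of those among the 10633 named features tested that had a value on all 6 arrays. With 6 arrays a near profile says nothing of shared function or control.

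Ptges encodes microsomal prostaglandin E synthase 1, which works with cyclooxygenase 2. Its levels were -2.98, -2.35 and -2.78 in diabetic kidneys and -2.76, -2.76 and -2.62 in Bailing Capsule kidneys. The 3 Bailing Capsule kidneys lay within the diabetic range, and their SD of 0.079 was below the diabetic SD of 0.32, a difference in spread that was not tested. The difference of the means was -0.012 (SE 0.26), with a 95% interval from -0.59 to 0.56, and its sign changed under 8 of 18 alternatives.

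Ptgds makes prostaglandin D2 and is secreted as a lipocalin that appears in urine. Its levels were -1.75, -0.91 and -1.23 in diabetic kidneys and -0.88, 0.90 and 0.083 in Bailing Capsule kidneys. Bailing Capsule replicate 1 was level with diabetic replicate 2, while replicates 2 and 3 lay clearly above every diabetic kidney. The means were -1.30 ± 0.42 and 0.034 ± 0.89 (SD, n = 3), a difference of 1.33 (SE 0.42, 95% interval 0.39 to 2.27). limma gave an unadjusted p of 0.0103 and an adjusted p of 0.351, so Ptgds was not called among 17892 features, of which 7.55% reached an unadjusted p under 0.05.

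The sign of the Ptgds difference held under all 18 alternatives, from 0.90 without Bailing Capsule replicate 2 to 1.79 without Bailing Capsule replicate 1, but groups that do not overlap fix the sign when an array is left out. Other filters, averaging of probes, other variance settings of limma and a replicate block left the Ptgds difference at 1.33. They cannot move the estimate of a gene with 1 probe, so its sign under them was also fixed. Its adjusted p ran from 0.0328 to 0.9998, and the gene passed only without Bailing Capsule replicate 1, the lowest of its group. With slide as a block the difference was 1.78 (adjusted p = 0.507). The groups also stayed apart under quantile and median scaling, in the deposited values, where the margin was 0.22, and with a different background correction, where the difference was 1.15. Among the Bailing Capsule arrays, the share of probes well above background was 64.55%, 73.46% and 70.7% in replicates 1, 2 and 3, in the same order as Ptgds. It was 69.28%, 67.25% and 66.44% in diabetic replicates 1, 2 and 3, where the array with the highest share had the lowest Ptgds level. Its part in the Ptgds levels was not tested.

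Lists of markers of some other cell types are set beside the Ptgds values here, and not all lists drawn up are shown. Among those left out, the urothelium list had 6 positive and 2 negative differences, a median of 0.25, none called and 3 with separate groups. The macrophage and myeloid list had 6 positive and 3 negative differences, a median of 0.19, none called and 2 with separate groups. A summed level is the log2 of the added signals of a list, so the brightest probes weigh most in it. All 9 intercalated cell markers had positive differences with a median of 0.69, and 1 was called, against 0.319% of all features. Of the 9, 5 had an unadjusted p under 0.05 (limma) and 5 had groups that did not overlap. Over all features these shares were 7.55% and 11.6%. The summed level of the 9 markers ran from 4.99 to 5.67 in diabetic and from 5.34 to 6.25 in Bailing Capsule kidneys. Each marker's level was also set against its diabetic mean. The median per array was then -0.12, 0.34 and -0.18 in diabetic and 0.92, 0.64 and 0.66 in Bailing Capsule kidneys, with no overlap. All 8 liver-type transcripts that were tested, of 13, had negative differences with a median of -1.16 and none called (limma, 6 at an unadjusted p under 0.05), and their summed level was 4.99 to 5.32 against 3.83 to 4.17. Among these 13, Apoa1, Apoa2, Ahsg, Tat and Cps1 were below the filter on dim probes. The 7 tested podocyte markers had a median of 0.25, none called and none with separate groups, and their summed level ran from 4.10 to 4.90 in diabetic and from 4.50 to 4.89 in Bailing Capsule kidneys. Of 7 tested adipocyte markers 6 had negative differences, with a median of -0.61 and none called (limma, 3 at an unadjusted p under 0.05), and their summed level ran from 3.75 to 4.30 in diabetic and from 2.59 to 3.86 in Bailing Capsule kidneys. All 6 tested red cell markers had positive differences, with a median of 0.47 and none called (limma, 2 at an unadjusted p under 0.05), and their summed level ran from 7.06 to 7.62 and from 7.22 to 8.22. Slc4a1, with a difference of 0.52 and groups that did not overlap, is in this list and in that of the intercalated cells. The 3 tested mast cell markers, of 9 with a probe, had negative differences with a median of -0.54 and none called (limma, none at an unadjusted p under 0.05). Those tested were Kit, Cma1 and Hdc, while Cpa3, Tpsab1, Tpsb2, Ms4a2, Fcer1a and Mcpt1 were below the filter on dim probes. The medians per array, set against the diabetic mean, were also apart for the liver-type list. They overlapped between the groups for the podocyte, adipocyte, red cell and mast cell lists. With slide as a block the list medians were 0.69 for intercalated cell, -0.94 for liver-type and 0.60 for podocyte markers. They were -0.86 for adipocyte, 0.73 for red cell and -0.67 for mast cell markers. The part of any of these lists in the Ptgds result was not tested.

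Ptgis encodes prostacyclin synthase, which makes prostaglandin I2 in vessel walls. It was well above background on 1 of 6 arrays, Bailing Capsule replicate 2, where its level was -5.07. The diabetic levels of -7.81, -5.66 and -7.27 and the other two Bailing Capsule levels of -7.15 and -5.75 are readings at background, so no fold is given. Of its 6 values in the deposited table, 5 sit at the lowest value of their column.

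Hpgd encodes the 15-hydroxyprostaglandin dehydrogenase, which starts the breakdown of prostaglandins. Its levels were 2.27, 2.56 and 2.38 in diabetic and 2.51, 1.92 and 2.38 in Bailing Capsule kidneys. Only Bailing Capsule replicate 2 lay outside the diabetic range, below it. The difference was -0.13 (SE 0.26, 95% interval -0.71 to 0.45; limma, adjusted p = 0.977), and without that array it was 0.043. A fall beyond 1.64-fold lies outside the interval.

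Of the prostaglandin E2 receptors, Ptger3 was the only one that could be tested. It encodes the EP3 receptor, which lowers cyclic AMP and is known from the thick ascending limb and collecting duct, where it opposes vasopressin. Its brighter probe had levels of -0.92, -0.65 and -1.24 in diabetic and of -1.24, -0.66 and -0.50 in Bailing Capsule kidneys. The lowest levels of the groups were equal to 2 decimals and the highest differed little, at -0.65 and -0.50. The difference was 0.13 (SE 0.29), with a 95% interval from -0.51 to 0.78 (limma, adjusted p = 0.982). A dimmer Ptger3 probe had -3.73, -4.18 and -4.12 in diabetic and -4.56, -3.27 and -3.56 in Bailing Capsule kidneys, where replicate 1 was not well above background. On both probes Bailing Capsule replicate 1 was the lowest of its group and the differences, 0.13 and 0.22, had the same sign. The dimmer probe was also far from passing (limma on single probes, adjusted p = 0.972). In the diabetic group the order differed between the probes: replicate 2 was the highest on the brighter one and the lowest on the dimmer one.

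The EP2 and EP4 receptors, which raise cyclic AMP, were at the edge of detection or below it. Ptger2 was not well above background on any of the 6 arrays, with readings from -8.13 to -6.80, and all 6 of its deposited values sit at the lowest value of their column. Ptger4 was well above background on diabetic replicate 1 and Bailing Capsule replicate 2, at -5.17 and -5.06. Its other readings ran from -5.68 to -5.05, so the detected and undetected arrays overlapped in level. For these receptors and Ptgis the arrays give a limit of detection and no comparison.

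**Figure D3:**
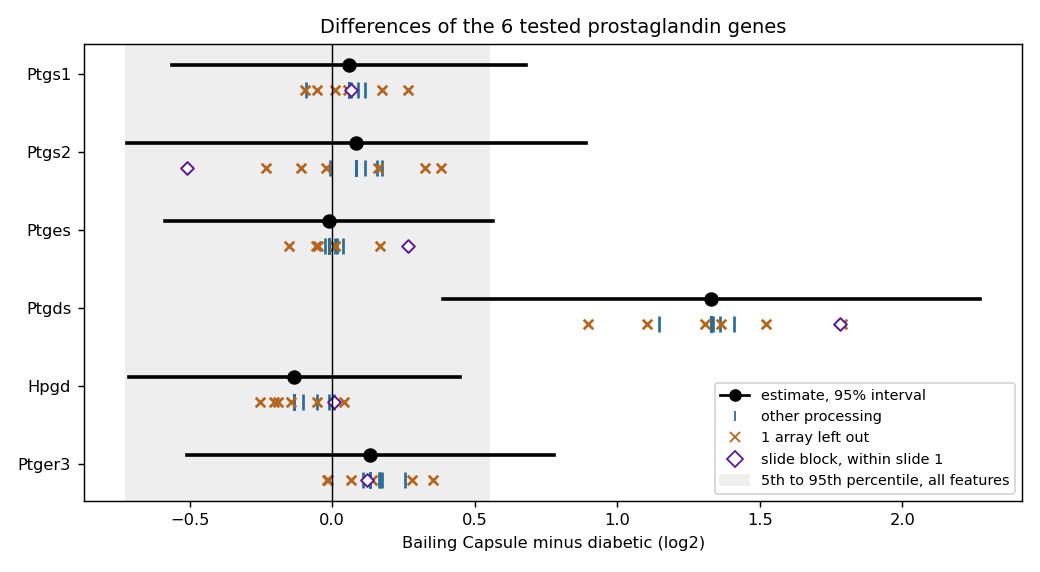
Bailing Capsule minus diabetic difference (log2) of the 6 tested genes. Black points and bars are the estimate and its 95% interval, smaller symbols the 18 alternatives, and the grey band spans the 5th to the 95th percentile of all 17892 features, -0.72 to 0.55. All estimates but that of Ptgds lie inside the band close to 0, and the slide-blocked Ptgs2 value lies at -0.51.

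Taking the 6 genes as a list, 4 had positive and 2 negative differences, with a median of 0.072. Over all features the median was -0.090, and 37.9% were positive. None of the 6 was called (limma), against 0.319% of all features. Only 1, Ptgds, had an unadjusted p under 0.05 and groups that did not overlap, against 7.55% and 11.6% of all features. With slide as a block the median of the genes was 0.095 and that of all features 0.089.

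Further genes of the pathway were taken from 4 lists of arachidonic acid release, other prostanoid synthesis and breakdown, other prostanoid receptors and transport, and leukotriene synthesis and reception. Of 49 listed gene symbols, of which Fam213b and Prxl2b name the same gene, 45 had a probe and 29 were tested. None was called (limma, lowest adjusted p = 0.175), and 2 had an unadjusted p under 0.05, against 7.55% of all features. The differences were positive for 10 and negative for 19, with a median of -0.12, and the groups did not overlap for 2, Abcc2 and Prxl2b, against 11.6% of all features. The slide-blocked median was 0.095.

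Among the genes of arachidonic acid release 2 of 8 differences were positive. Pla2g4a, the cytosolic phospholipase A2 that supplies the cyclooxygenases, had 0.41 (SE 0.28, limma adjusted p = 0.883), with levels of -2.52, -2.27 and -2.38 in diabetic and -2.29, -1.51 and -2.14 in Bailing Capsule kidneys. The lysosomal phospholipase gene Pla2g15 had -0.77, Mgll, whose product frees arachidonate from an endocannabinoid, -0.74, and Pla2g4b -0.45. For Pla2g15 and Mgll, Bailing Capsule replicate 2 lay within the diabetic range while the other two arrays of its group lay below it. The Pla2g4b value turned to 0.58 with slide as a block, and the other 3 kept their sign.

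In synthesis and breakdown 2 of 8 differences were positive. Thromboxane synthase, Tbxas1, had 0.44 (SE 0.28) and the carbonyl reductase gene Cbr1, whose product can reduce prostaglandin E2, 0.065. Ptges3, which encodes the cytosolic prostaglandin E synthase and cochaperone p23, had -0.27, the reductase gene Ptgr2 -0.29 and Prxl2b, the prostamide and prostaglandin F synthase gene, -0.52. The levels of Prxl2b were 0.42, 0.42 and 0.17 in diabetic and -0.60, 0.13 and -0.074 in Bailing Capsule kidneys, apart by less than 0.05 between the nearest arrays, and the gene did not pass (limma, adjusted p = 0.751). Ptges2 and Hpgds, a further prostaglandin E synthase gene and the haematopoietic prostaglandin D synthase gene, were below the filter and were not tested. The prostaglandin D2 receptor genes Ptgdr and Ptgdr2, which receive the product of Ptgds, had 0.10 and -0.44 and overlapped between the groups. The slide-blocked values of these receptor genes were 0.47 and -0.0016, while Tbxas1 had 0.69, Cbr1 0.16 and Ptgr2 -0.50.

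Of the other receptors and transporters, the prostacyclin receptor gene Ptgir had -0.11 and Abcc4, which encodes an exporter of prostaglandins, 0.016, and with slide as a block both turned sign, to 0.36 and -0.19. Ptgfr, Tbxa2r and Slco2a1, the receptors of prostaglandin F2 alpha and thromboxane and the uptake carrier that precedes breakdown by Hpgd, were below the filter. Abcc2, which encodes an apical efflux pump for organic anions, had levels of 2.39, 3.49 and 2.78 in diabetic and 1.73, 1.63 and 1.34 in Bailing Capsule kidneys. All 3 Bailing Capsule levels were below all diabetic ones, and the difference was -1.32 (SE 0.32, limma adjusted p = 0.175), 2.50-fold lower. It passed only without diabetic replicate 1, at -1.57 (adjusted p = 0.0449), and with slide as a block it was -0.82 (adjusted p = 0.9997).

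In the leukotriene branch, which 5-lipoxygenase and its activating protein open, 2 of 6 differences were positive. The leukotriene B4 receptor gene Ltb4r2 had -1.06 (SE 0.55), Alox5ap, the activating protein gene, 0.51 and Ltc4s, the leukotriene C4 synthase gene, -0.42, and the groups overlapped for each. With slide as a block Ltb4r2 had -0.018, Alox5ap 0.25 and Ltc4s -0.021. Of the genes that relay the receptors' signal, G protein subunits, adenylyl cyclases, protein kinase A and phosphodiesterases, 21 were tested, with 11 positive and 10 negative differences, a median of 0.021 and none called (limma, 1 at an unadjusted p under 0.05). A list of 6 genes held nuclear receptors that bind eicosanoids, their partner receptors and the coactivator gene Ppargc1a. Its median was 0.054, which turned to -0.077 with slide as a block, and none was called (limma, none at an unadjusted p under 0.05).

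**Figure D4:**
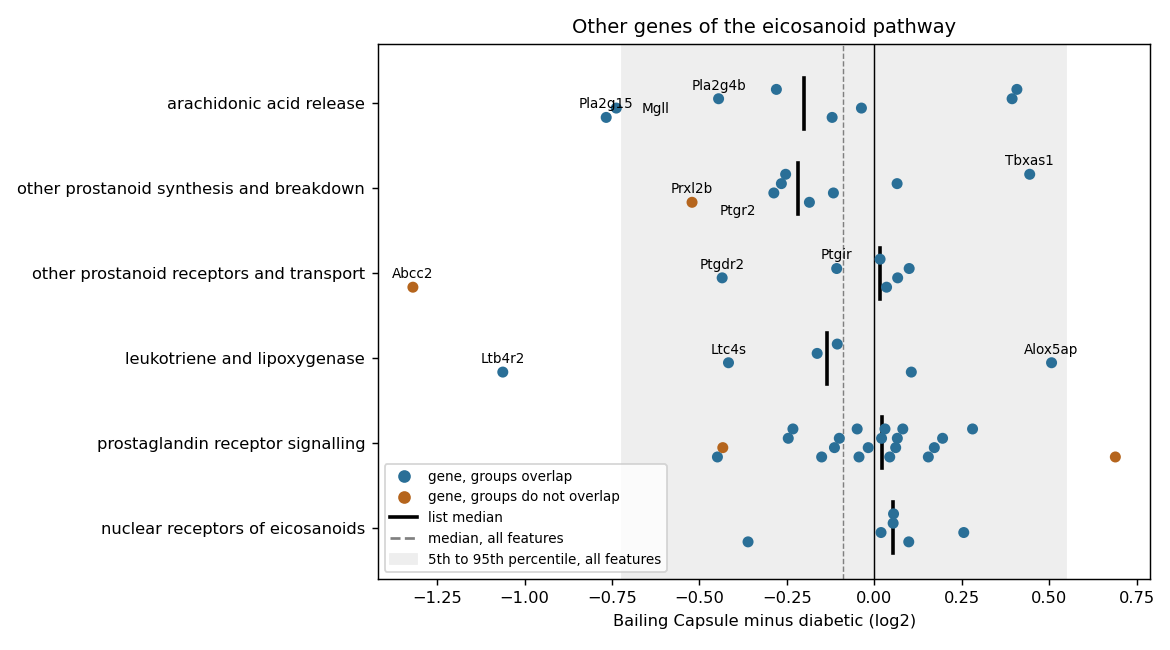
Bailing Capsule minus diabetic difference (log2) of each tested gene in 6 lists around the prostaglandin genes, with the list medians as black lines, the median of all 17892 features (-0.090) as a dashed line and their 5th to 95th percentile as a grey band. Most points lie within the band, and Abcc2 at -1.32 and Ltb4r2 at -1.06 lie farthest below it; with slide as a block, which is not plotted, these had -0.82 and -0.018.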

How the data were processed

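Kidney RNA of 6 samples was measured on Agilent 1-colour arrays. Per the file headers, Feature Extraction 11.0.1.1 gave each spot an intensity that was background-subtracted and detrended, and arrays were not scaled to each other. The deposited table holds log2 values on 1 common distribution, as read from the values. How it was made is not given in the sources used here. It was used as an alternative.

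Outlier spots (597 to 1091 of 42877 per array) were left out, spots of a probe were averaged as log2, and each array's 75th percentile was subtracted. No spot was saturated. A probe was well above background where at least 50% of its spots were, and was kept if that was so throughout either group. The brightest kept probe stood for a gene. RefSeq accessions without versions were matched to RefSeq's genes of assembly GRCr8, giving names to 18005 probes. The array was annotated on build rn4, so coordinates are given for the RefSeq windows only.

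limma 3.58.1 (R 4.3.3, lmFit with eBayes, two-sided) was fitted to all 17892 features, of which 536 lacked a value on at least 1 array, with Benjamini-Hochberg adjustment and calls at an adjusted p under 0.05. The script was tested on simulated data. The 10 genes and all lists were chosen with earlier results of these data known. Every one of the 10 genes is named. Of the 4 wider lists those called, the 3 largest differences in each and 11 fixed partners are named, and Prxl2b's and Abcc2's separation and the prostaglandin D2 receptors were singled out after their values were seen. The number of arrays limits the precision. Normexp used an offset of 50.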

Additional observations from a re-analysis of the deposited data

How the results depend on the processing

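Called features numbered 14 under normexp background correction with quantile normalization, 6 with no filter on dim probes, 9 within slide 1 alone and 17 to 195 when 1 array was left out. A replicate block, by the numbers in the labels, gave 6. The main processing called 23 features higher and 34 lower, the deposited values 25 and 20, and slide as a block 28 and 11, so the excess of lower calls turned in both. Same-numbered samples of the groups correlated at -0.181, -0.14 and 0.0194 after group means were removed, which gave no sign of a pairing, and the block called none of the prostaglandin genes. Their number called was 0 in every alternative but those that leave out 1 array, where it was 0 to 1, and it was likewise 0 to 1 for the other prostanoid pathway genes. Fewer arrays enter within slide 1 and with 1 left out, and more features without the filter; otherwise the cause was not tested.

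Of 108 values of the 6 genes under alternatives, 23 changed sign, none of them for Ptgds and none called. Other filters, other variance settings of limma and the replicate block left the 6 estimates as they were. The values with slide as a block and within slide 1 were the same, so the 108 are not independent checks of a sign. Hpgd had 0.0053 in the deposited table and 0.0056 with slide as a block and within slide 1, and -0.25 to 0.043 with 1 array left out. Ptges had 0.018 with median scaling, 0.039 with normexp, 0.010 in the deposited table, 0.27 with slide as a block and within slide 1, and -0.15 to 0.17 with 1 array left out. Ptgs1 had -0.093 as the mean of its probes and -0.096 to 0.27 with 1 array left out. Ptgs2 had -0.0059 with normexp, -0.51 with slide as a block and within slide 1, and -0.23 to 0.38 with 1 array left out. Ptger3 had -0.017 to 0.35 with 1 array left out. The direction of these 5 genes is therefore not settled. Signals close to background limit Ptgis, Ptger2 and Ptger4. The Ptgs2 values are also limited by a dim probe, though it was well above background on every array.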
